A study of Mus musculus with 14 samples.

Results

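The fasting response of the hypothalamus was measured in mice that lack Mfn1 in neurons expressing pro-opiomelanocortin (POMC). The comparison took every array whose title combines the knockout genotype with a feeding state, which gave 3 fasted and 4 fed knockout arrays of 14 arrays in the whole series. No control array entered the comparison. All 7 samples carried the genotype POMCMfn1KO, came from 12-week-old mice on a mixed background of C57Bl/6J, FVB/N and 129, and differed by feeding state, either random fed or fasted for 16 h. Total RNA (150 ng) of the hypothalamus was hybridised to Affymetrix arrays, and all values below are log2 expression values, on which a difference of 1 means a factor of 2. The labels do not say whether an array holds 1 mouse, so p-values measure only the spread between these samples. The deletion is restricted to POMC neurons, a small part of the tissue. In such bulk RNA, fewer cells of a type and less RNA per cell cannot be told apart.

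Mitofusin 1, encoded by Mfn1, is an outer membrane protein that fuses mitochondria. POMC neurons of the arcuate nucleus curb feeding and sense glucose, and they work against neighbouring neurons that make neuropeptide Y and promote feeding. A fast lowers insulin and leptin and raises circulating corticosterone. Corticosterone acts through the glucocorticoid receptor, a transcription factor of neurons, glia and blood vessel cells that binds a palindrome of paired half-sites in DNA.

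The sample titles end in numbers of a low and a high series, and replicates are numbered here in their order. All 3 fasted arrays and fed replicate 1 are of the low series and fed replicates 2 to 4 of the high series. The labels do not say what the numbers stand for. Feeding state and title number could be told apart only through fed replicate 1, so its values are given separately for the genes and lists the results turn on. It had low choroid plexus transcripts: the main transcript of that tissue, Ttr (transthyretin), read 9.99 there and between 12.91 and 13.14 on the other 6 arrays. Fed replicate 1 lay more than 1 log2 unit below all other 6 arrays in 21 genes, 8 of them among the 9 choroid plexus genes measured. Fasted replicate 2 lay above all others by that margin in 20 genes and below them in 9, and fed replicate 4 lay above them in 2. No other array had such a gene. Array medians lay between 4.98 and 5.05. Transcripts of hypothalamic neurons were abundant, with means of 12.44 for Pmch (melanin-concentrating hormone), 10.76 for Avp (vasopressin) and 10.61 for Hcrt (orexin). Among 12 transcription factors of hypothalamic nuclei, 6 averaged less than 1 log2 unit above the median of 3.64 of probe sets without a target, Rax (4.04) and Otp (3.83) among them. Markers of the adjoining thalamus, such as Prkcd (11.38) and Tcf7l2 (10.71), were high on all 7 arrays, and their part in the results was not tested.

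Mfn1 itself read 9.11, 9.04 and 9.04 in the fasted arrays and 9.03, 9.06, 9.03 and 9.12 in the fed arrays. The groups overlapped, and the difference was 0.003 ± 0.056 (SE). Control arrays of the series lay between 8.99 and 9.10, so whole-tissue Mfn1 does not check the genotype labels. Its partner Mfn2 read 10.25 to 10.38 fasted and 10.37 to 10.47 fed, a difference of -0.08 ± 0.06. Of 11 genes of mitochondrial fusion and fission, 0 passed in limma. Only Oma1 (-0.19 ± 0.08) had an unadjusted p below 0.05, and its groups overlapped. Every fasted array lay below every fed array for 1, the fission GTPase Dnm1l (-0.11 ± 0.05), beside 5.64% of all genes. The reverse held for 1, the Dnm1l receptor Mief1 (0.13 ± 0.06), beside 7.35% of all genes. Their adjusted p in limma was 0.361 and 0.384.

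In fasted knockout mice the sulfotransferase Sult1a1 rose by a factor of 4.25, the phospholipid transporter Mfsd2a by 3.29 and the dioxygenase Phyhd1 by 2.39. Smaller rises were found in Slc25a34, Scrg1, Agt, Itih5, Cbs and Ugt1a6a, and a single gene fell. Of 17097 genes tested with limma on the 7 arrays, 9 rose (0.0526%) and 1 fell (0.00585%) at an adjusted p below 0.05. The smallest adjusted p was 0.0351, and 33 genes were below 0.1. The median difference of all genes was 0.007. Unadjusted, 2483 of the 17097 genes had a p below 0.05 in limma, of which 1342 were higher and 1141 lower in fasted mice. The unadjusted counts of the gene lists below stand beside that share of all genes. The count of called genes rested on single arrays: limma called 0 genes without fasted replicate 1, fasted replicate 2 or fed replicate 2, with 2096, 1719 and 1984 genes at an unadjusted p below 0.05. It called 1 without fed replicate 3 (Phyhd1), 3 without fed replicate 4 (Scrg1, Sult1a1 and the adiponectin receptor Adipor2, which is outside the naming rule), 29 without fasted replicate 3 and 32 without fed replicate 1.

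Sult1a1, a cytosolic enzyme that sulfates phenols and is induced by glucocorticoids, read 9.27, 9.49 and 9.04 in the fasted arrays and 7.09, 6.91, 6.86 and 7.85 in the fed arrays. The lowest fasted array was above the highest fed array, fed replicate 4, by more than 1 log2 unit. Sult1a1 rose by 2.09 ± 0.23 (SE), a factor of 4.25 (limma, adjusted p = 0.0351, which is also the value of Mfsd2a, Phyhd1, Slc25a34, Agt and Itih5). Mfsd2a, the transporter that carries lysophospholipids with omega-3 fatty acids across the blood-brain barrier, read 9.25, 9.78 and 9.07 fasted and 7.85, 7.52, 7.35 and 7.88 fed. It rose by 1.72 ± 0.19, a factor of 3.29, and fed replicate 1 was among the higher fed arrays. Phyhd1, which encodes a dioxygenase of the phytanoyl-CoA hydroxylase family, read 8.16, 8.26 and 8.17 fasted against 7.09, 6.92, 6.59 and 7.16 fed and rose by 1.26 ± 0.13. Its 3 fasted values lay closer together than its fed values.

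The other risers were smaller. Slc25a34, a member of the mitochondrial carrier family, read 6.57, 6.75 and 6.47 fasted and 5.73, 5.90, 5.84 and 5.79 fed, and rose by 0.78 ± 0.08. Scrg1, a secreted glial protein described in prion-infected brain, read 9.27, 9.38 and 9.21 against 8.53, 8.42, 8.49 and 8.73 and rose by 0.74 ± 0.09 (limma, adjusted p = 0.0394). Fed replicate 1 was the lowest fed array for Slc25a34 and lay among the others for Scrg1.

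Angiotensinogen (Agt), the precursor of the angiotensins and in the brain a product of astrocytes, read 10.76, 10.74 and 10.76 fasted and 10.21, 10.14, 10.16 and 10.28 fed, and rose by 0.56 ± 0.06. Itih5, which encodes a hyaluronan-binding matrix protein, rose by 0.55 ± 0.06, with 9.83, 10 and 9.93 fasted and 9.34 to 9.38 fed. Cbs, cystathionine beta-synthase, which directs homocysteine into cysteine synthesis and in the brain is largely astrocytic, read 7.96, 7.99 and 7.84 fasted and 7.47, 7.34, 7.35 and 7.33 fed. It rose by 0.56 ± 0.07 (limma, adjusted p = 0.0430), and fed replicate 1 was the fed array nearest to the fasted ones. Ugt1a6a, a glucuronosyltransferase, read 6.42, 6.70 and 6.73 against 5.80, 5.82, 5.92 and 5.97 and rose by 0.74 ± 0.09 (limma, adjusted p = 0.0471). The Ugt1a genes share their last exons, so signal of relatives could enter its probe set.

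The only gene that fell was E130114P18Rik, named here after its values were seen because the naming rule leaves out clone symbols. It read 5.11, 4.99 and 5.10 fasted and 5.70, 5.58, 5.72 and 5.60 fed, and fell by 0.58 on the log2 scale (SE 0.06, limma, adjusted p = 0.0351). Against fed replicate 1 alone the 10 genes kept their direction, with differences from 0.46 for Cbs to 2.18 for Sult1a1 among the 9 higher genes and -0.63 for E130114P18Rik. With the title number as a covariate, which leaves fed replicate 1 as the only fed array to compare with, limma called 3 genes, Ttr, Kcnj13 and Ecrg4, and none of these 10, whose adjusted p lay between 0.18 and 0.305. Kcnj13 and Ecrg4 were named after their values were seen; Kcnj13 is a potassium channel of the choroid plexus and Ecrg4 a secreted peptide precursor.

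**Figure D1:**
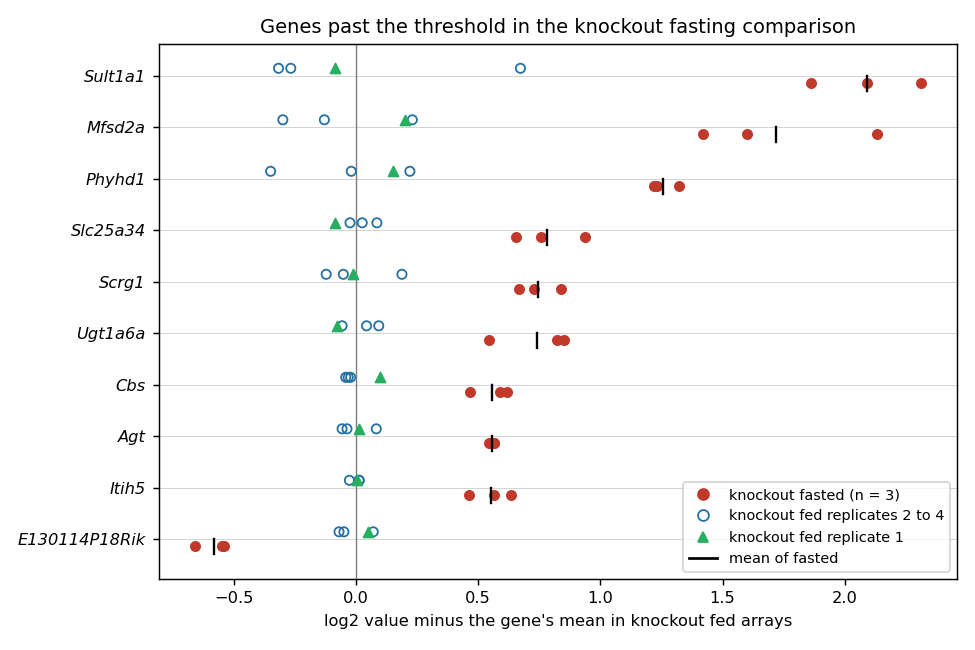
Log2 value of each array minus the gene's mean over the knockout fed arrays (x axis) for the 10 genes past an adjusted p of 0.05, with 3 fasted arrays as filled circles, fed replicates 2 to 4 as open circles, fed replicate 1 as a triangle and a bar at the mean of the fasted arrays. Fasted and fed arrays are apart for every gene, and Sult1a1 spans the widest difference, 2.09.

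Many more genes separated the arrays than passed the test. Every fasted array lay above every fed array for 1256 genes (7.35% of those tested) and below for 964 (5.64%). Without fed replicate 1 these counts were 1732 (10.1%) and 1591 (9.31%), without fasted replicate 3 they were 2259 (13.2%) and 2201 (12.9%), without fasted replicate 1 they were 2085 (12.2%) and 1494 (8.74%), and without fed replicate 4 they were 1891 (11.1%) and 1393 (8.15%). Genes whose groups did not overlap are called apart below. Where the control arrays were added only to estimate the spread, with the same 7 arrays giving the difference, limma called 80 genes higher (0.468%) and 39 lower (0.228%). All 10 genes above were among those 119. The genes called only in that fit are described below by their values, with the adjusted p of both fits where it helps.

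Genes known to be induced by glucocorticoids all had higher means in fasted knockout mice. Of 28 listed genes 25 were measured, and all 25 had a positive difference, with a median of 0.90 beside 0.007 over all genes. On the 7 arrays 2 of them passed (Sult1a1 and Mfsd2a), against 9 in the fit over 14 arrays, and 22 had an unadjusted p below 0.05. Every fasted array was above every fed array for 12 of the 25, where 7.35% of all genes were, and the reverse held for 0. Several of these members were put on the list with earlier results of these arrays known, so its direction is not independent evidence.

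Plin4, a coat protein of lipid droplets, had the largest difference: 8.01, 8.89 and 6.98 fasted and 4.80, 4.71, 4.77 and 5.55 fed. The groups did not overlap, with fasted replicate 2 the highest of all and fed replicate 4 the highest of the fed. The difference was 3.0 ± 0.40 (limma, adjusted p = 0.0617 on 7 arrays and 0.00159 with 14 arrays). Cdkn1a, the cell cycle inhibitor p21, read 8.30, 10.47 and 7.57 fasted and 5.98, 6.13, 6.34 and 6.74 fed, again with fasted replicate 2 far above the others. Its difference was 2.48 ± 0.59, and 1.64 without that array. Fkbp5, the receptor co-chaperone that damps glucocorticoid signalling, read 8.70, 9.85 and 8.44 against 7.70, 7.62, 7.82 and 7.95, a difference of 1.22 ± 0.29, and 0.80 without fasted replicate 2. Angptl4, a secreted inhibitor of lipoprotein lipase, read 7.27, 7.89 and 7.30 fasted and 6.27, 6.41, 6.44 and 6.67 fed, and the serine protease Htra1 read 11.19, 11.42 and 10.93 against 10.36, 10.15, 10.30 and 10.56. Both had an adjusted p of 0.0921 in limma on 7 arrays.

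Mt1 (metallothionein 1, which binds zinc and copper) differed with little spread. It read 12.94, 13.16 and 12.84 fasted and 12.38, 12.36, 12.34 and 12.37 fed, a difference of 0.62 ± 0.08 (limma, adjusted p = 0.0584 on 7 arrays and 0.00125 with 14). Fam107a, an actin-associated protein of astrocytes and neurons induced by stress, read 12.05, 12.20 and 12.11 against 11.66, 11.63, 11.60 and 11.83. Sgk1, the serum- and glucocorticoid-induced kinase, is outside the naming rule and was named after its values were seen because of its promoter. It read 10.48, 11.48 and 11 fasted and 9.37, 9.41, 9.35 and 10.79 fed, so that fed replicate 4 lay above fasted replicate 1. The difference of Sgk1 was 1.26 ± 0.38 (limma, adjusted p = 0.234).

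These 3 genes were the listed ones whose promoters held the glucocorticoid receptor palindrome, searched as GNACANNNTGTNC on both strands in RefSeq windows of GRCm38.p6 that run from 250 bases before to 50 after a gene's start. The palindrome was in 4 of the 34 windows of 21 listed genes (11.8%), in 0.475% of all 32851 windows, and in 0 of the 11 windows of the 9 called genes with a window. The stretches are shown, with the palindrome in capitals, because each holds the receptor's palindrome in a gene with higher fasted values; a match is a description of letters and not a bound site. Mt1 is from chr8:94178955-94179047 (plus strand), Sgk1 from chr10:21993662-21993754 (plus strand) and Fam107a from chr14:8309845-8309937 (minus strand), each written 5′ to 3′ along the gene.
Mt1: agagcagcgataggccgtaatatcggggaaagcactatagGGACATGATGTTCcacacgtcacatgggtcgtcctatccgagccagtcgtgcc
Sgk1: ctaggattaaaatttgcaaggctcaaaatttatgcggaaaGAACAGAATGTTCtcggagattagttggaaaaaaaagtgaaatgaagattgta
Fam107a: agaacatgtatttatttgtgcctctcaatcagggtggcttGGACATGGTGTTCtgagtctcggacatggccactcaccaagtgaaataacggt
The first palindrome base lies 94 bases before the start of Mt1, 188 before that of Sgk1 and 118 before that of Fam107a. The core letters of FOXO factors, TGTTTAC, were in 1 listed window (Klf9), in 1 called gene's window (E130114P18Rik) and in 3.65% of all windows.

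Arrays of a group differed in the sum of these genes. Each array's score, the mean of the 25 genes after centring each on its mean over the 7 arrays, was 0.279, 1.131 and 0.371 in the fasted arrays and -0.563, -0.551, -0.570 and -0.096 in the fed arrays. Fasted replicate 2 had the highest score and fed replicate 4 the highest of the fed, and fed replicate 1 lay with fed replicates 2 and 3. The list's median difference was 1.04 against fed replicate 1 alone and 0.86 against the other 3 fed arrays. Without fasted replicate 2 the median was 0.68, and without fed replicate 4 it was 0.97. Of the 25 genes, 22 were apart upwards without fed replicate 4 (11.1% of all genes) and 21 without fasted replicate 1 (12.2%). Without fasted replicate 3 limma called 6 of the 25 higher, Plin4, Mt1 and Htra1 among them, beside 18 higher calls over all 17097 genes. Neither receptor passed the test. Nr3c1, the glucocorticoid receptor, read 9.24 to 9.60 fasted and 9.55 to 9.66 fed (-0.13 ± 0.09), and Nr3c2, the mineralocorticoid receptor, 7.90 to 8.07 and 7.79 to 7.90 (0.15 ± 0.06).

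**Figure D2:**
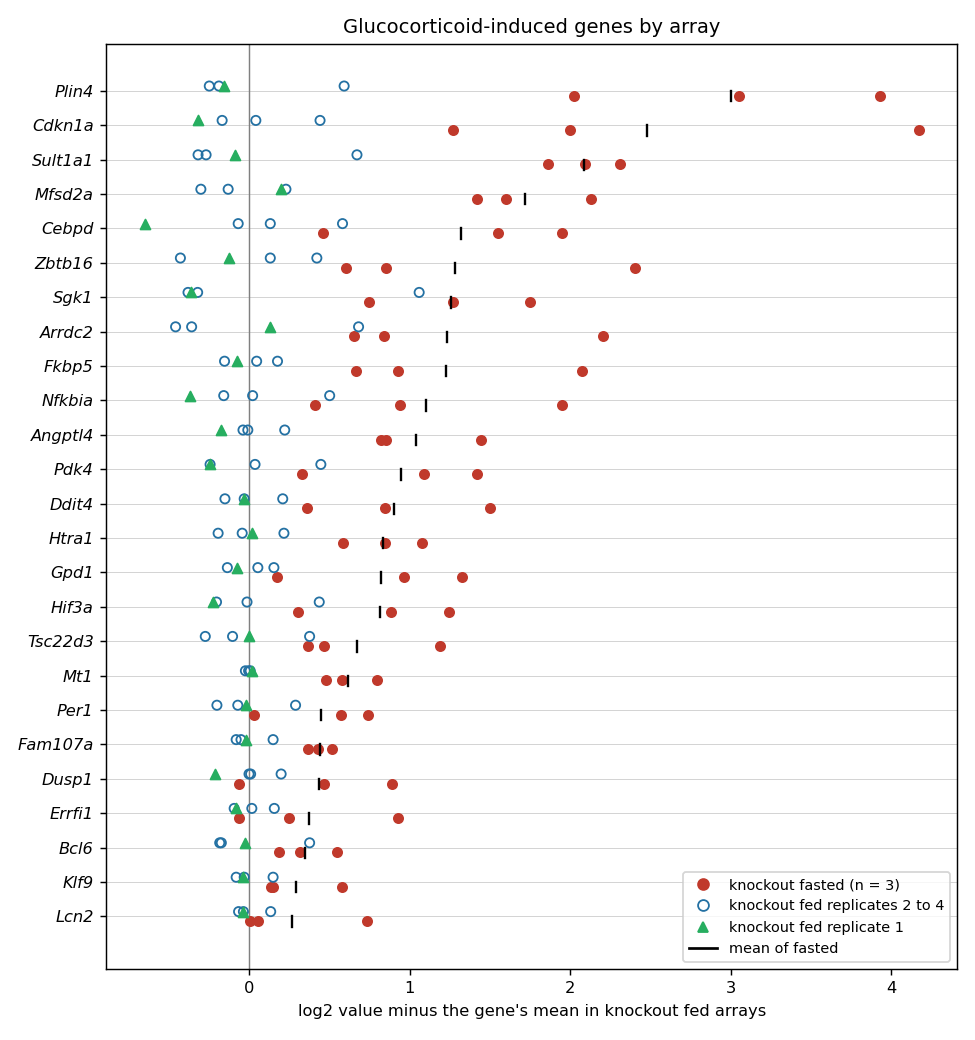
Log2 value of each array minus the gene's mean over the knockout fed arrays (x axis) for all 25 measured glucocorticoid-induced genes, ordered by difference, with fasted arrays as filled circles, fed replicates 2 to 4 as open circles, fed replicate 1 as a triangle and a bar at the fasted mean. All 25 fasted means lie to the right of 0, and Plin4 and Cdkn1a differ most, by 3.0 and 2.48.

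Among targets of FOXO factors and brakes on mTOR, which are released when insulin falls, 0 of 22 measured genes passed in limma (8 at an unadjusted p below 0.05), 17 differences were positive and the median was 0.17. Every fasted array was above every fed array for 6, where 7.35% of all genes were, and for 11 without fed replicate 4 (11.1% of all genes). Txnip, an arrestin-like protein that limits glucose uptake, read 7.89, 8.91 and 7.79 fasted and 6.77, 6.97, 7.01 and 7.31 fed. Ddit4, an mTOR inhibitor also on the glucocorticoid list, read 9.09, 10.23 and 9.58 against 8.70, 8.70, 8.58 and 8.94. Sesn1 (0.41 ± 0.14) and Sesn2 (0.40 ± 0.09), which restrain mTOR, and Foxo3 (0.20 ± 0.07) were apart as well. The difference of Sesn2 was 0.16 against fed replicate 1 alone and 0.47 against the other fed arrays. Insr, the insulin receptor, differed by 0.18 ± 0.06 without overlap, but by -0.04 when its probe sets were averaged, and Lepr, the leptin receptor, read 4.53 to 4.94 fasted and 3.72 to 4.57 fed, close to background.

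Genes of lipid droplets, fatty acid oxidation and ketone bodies had a median difference of 0.10, with 17 of 25 positive. Of the 25, 0 passed in limma on 7 arrays (10 at an unadjusted p below 0.05) and 2 with 14 (Plin4 and Pnpla7), 8 had every fasted array above every fed array, where 7.35% of all genes did, and 1 the reverse, where 5.64% did. Without fasted replicate 3 the counts were 10 and 4, beside 13.2% and 12.9% of all genes, and without fed replicate 1 they were 8 and 3, beside 10.1% and 9.31%. Pnpla7, a lysophospholipase, read 7.5, 7.80 and 7.51 against 6.62, 6.36, 6.70 and 6.96. Cpt1a, which admits fatty acids to mitochondria, read 8.59, 8.60 and 8.64 against 8.21, 8.33, 8.41 and 8.43. Pdk2, a kinase that shuts pyruvate out of the citrate cycle, differed by 0.32 ± 0.07, the lipase Lipe by 0.56 ± 0.12, the acyl-CoA dehydrogenase Acadl by 0.23 ± 0.07 and the droplet protein Plin3 by 0.36 ± 0.12. Pdk4 had a larger difference, 0.94 ± 0.26, but fed replicate 4 (6.16) lay above fasted replicate 1 (6.04). Among the 8 negative differences were the droplet protein Plin2 (-0.37 ± 0.14, overlapping), Acadm (-0.13 ± 0.07) and Hadhb (-0.10 ± 0.07) of fatty acid oxidation. The ketone body genes Oxct1 (-0.11 ± 0.06), the gene apart downwards, and Acat1 (-0.07 ± 0.06) were negative too. These negative genes were named after their values were seen.

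Most genes of cholesterol synthesis and uptake had lower means in fasted mice. Of 19 measured, 0 passed in limma (11 at an unadjusted p below 0.05) and 16 were negative, with a median of -0.18, and every fasted array lay below every fed array for 9, where 5.64% of all genes did. Cyp51, the lanosterol demethylase, read 8.96, 8.74 and 8.90 fasted and 9.15, 9.12, 9.12 and 9.12 fed (-0.26 ± 0.07, limma, adjusted p = 0.196). Other members apart were Idi1 (-0.34 ± 0.09) and Sqle (-0.27 ± 0.08) of the early pathway, Dhcr7 (-0.38 ± 0.11), Ebp (-0.22 ± 0.07) and Msmo1 (-0.19 ± 0.06) of the late pathway, the transporter Stard4 (-0.21 ± 0.07) and the regulator Srebf2 (-0.24 ± 0.07). The median was the same size against fed replicate 1 alone (-0.18) and against fed replicates 2 to 4 (-0.17). Across the processing alternatives described below, the difference of Msmo1 ranged from -0.23 to -0.04.

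For fatty acid synthesis and desaturation, 0 of 14 genes passed on 7 arrays (5 at an unadjusted p below 0.05). Of the 14, 5 had all fasted below all fed arrays (5.64% of all genes) and 2 the reverse (7.35%). The lower count was 8 without fasted replicate 3 (12.9% of all genes) and 8 without fed replicate 4 (8.15%). Me1, the NADPH-making malic enzyme, read 9.26, 9.20 and 9.33 against 9.54, 9.67, 9.63 and 9.56 and passed only in the fit over 14 arrays (limma, adjusted p = 0.0327, and 0.144 on 7 arrays). Fatty acid synthase (Fasn) differed by -0.21 ± 0.06, Elovl6 by -0.43 ± 0.16 and the desaturase Fads2 by -0.15 ± 0.06, while Acacb, whose product inhibits fatty acid entry into mitochondria, differed by 0.43 ± 0.13. For glucose handling, 0 of 22 measured genes passed in limma (7 at an unadjusted p below 0.05). Slc2a1 (GLUT1) read 10.39, 11.06 and 10.27 fasted and 9.98, 9.99, 10.10 and 10.14 fed, Slc2a4 (GLUT4) differed by 0.70 ± 0.23 and the muscle-type glycogen phosphorylase Pygm by 0.29 ± 0.09, and the lactate carrier Slc16a7 read 5.44, 5.12 and 5.25 against 5.55, 6.12, 5.55 and 5.71. Of this list these 4 genes and Pdk2 were apart, 4 upwards and 1 downwards, beside 7.35% and 5.64% of all genes, and the groups overlapped in the other 17. Without fed replicate 4, 7 were apart upwards (11.1% of all genes) and 2 downwards (8.15%). Without fasted replicate 1, 3 were apart downwards (8.74% of all genes), and 3 without fasted replicate 3 (12.9%).

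No feeding peptide separated the groups. Npy, which promotes feeding, read 9.28, 9.99 and 9.15 fasted and 9.16, 8.76, 8.81 and 9.41 fed. The highest value was again fasted replicate 2, fed replicate 4 lay above 2 fasted arrays, and the difference of 0.44 ± 0.23 did not pass (limma, adjusted p = 0.410). Pomc read 7.27, 7.27 and 6.73 fasted and 6.82, 7.53, 7.47 and 7.04 fed (-0.13 ± 0.20), and Cartpt, co-expressed with it, 9.50 to 9.73 and 9.59 to 9.69 (-0.004 ± 0.072). Of 21 peptide genes 0 passed in limma, 0 were apart and 0 had an unadjusted p below 0.05. In the list of hunger-promoting neurons, Ghsr, the ghrelin receptor, read 4.78, 4.33 and 4.35 against 4.19, 4.01, 4.10 and 4.23, near background, and Serpina3n, a protease inhibitor, 7.31, 7.28 and 7.51 against 6.78, 6.84, 6.88 and 7.26. The activin receptor Acvr1c (0.27 ± 0.09) and the peptide receptor Npy2r (-0.36 ± 0.11) overlapped. No gene of that list passed in limma on 7 or 14 arrays, 4 of its 8 measured genes had an unadjusted p below 0.05, and Agrp was not analysed here because no probe set names it alone.

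Glial and vascular markers were apart in both directions. Of 15 astrocyte genes 1 passed (Agt), 3 with 14 arrays, and 5 were apart upwards and 2 downwards. Over all genes 0.0526% rose on 7 arrays and 0.468% with 14, and 7.35% and 5.64% were apart. Mertk, a phagocytic receptor, read 8.08, 8.71 and 8.07 against 7.31, 7.15, 7.28 and 7.74, and Fgfr3 differed by 0.52 ± 0.09, the connexin Gjb6 by 0.55 ± 0.14 and the folate enzyme Aldh1l1 by 0.27 ± 0.07. Aqp4, the astrocyte water channel, read 10.34, 10.33 and 10.23 against 10.58, 10.68, 10.71 and 10.44 (-0.30 ± 0.08). Of 11 tanycyte genes 0 passed in limma (3 at an unadjusted p below 0.05, and 1, Fabp7, with 14 arrays). Dio2, which makes active thyroid hormone, read 8.37, 8.87 and 8.28 against 7.56, 7.52, 7.39 and 7.95. Fabp7, the brain fatty acid binding protein of radial glia, tanycytes and astrocytes, was lower, with 9.72, 8.98 and 10 against 10.43, 10.60, 10.59 and 10.59 (-0.99 ± 0.21, limma, adjusted p = 0.038 with 14 arrays and 0.16 on 7).

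Of 22 oligodendrocyte and myelin genes, 0 passed in limma on 7 arrays (10 at an unadjusted p below 0.05) and 2 with 14, both lower. Ugt8a, which makes the galactolipids of myelin, read 9.77, 9.10 and 10.06 against 10.67, 10.55, 10.64 and 10.70, and Ninj2 read 4.74, 4.51 and 5.02 against 5.61, 5.42, 5.47 and 5.66. Fa2h (-0.52 ± 0.13), Opalin (-0.91 ± 0.26) and Car2 (-0.57 ± 0.16) were apart in the same direction, as was Qdpr, and Cldn11 in the other (0.25 ± 0.07). In all 6 of the 22 were apart downwards and 2 upwards, beside 5.64% and 7.35% of all genes, and 11 downwards without fasted replicate 3 (12.9% of all genes). The second gene apart upwards was Mbp, myelin basic protein, at 13.01, 13 and 13.01 against 12.99, 12.90, 12.92 and 12.95, a difference of 0.07 ± 0.05. Other main myelin genes overlapped, with differences of 0.15 for Mobp, 0.04 for Mog, -0.05 for Mag and -0.07 for Cnp. Mbp, Mobp, Mog, Mag and Cnp were named after their values were seen. The list's median was -0.20, and -0.06 without fasted replicate 2. For microglia, 0 of 19 genes passed on 7 arrays (8 at an unadjusted p below 0.05) and 1, Ly86, with 14. Of the 19 differences 16 were negative, with a median of -0.23, and -0.12 without fasted replicate 2, and 6 genes were apart, all lower, where 5.64% of all genes were, and 10 without fasted replicate 3 (12.9% of all genes). Ly86 read 8.08, 7.74 and 8.15 against 8.63, 8.94, 8.67 and 8.74, and P2ry12 (-0.62 ± 0.17), Aif1 (-0.62 ± 0.18), Gpr34 (-0.58 ± 0.17) and Olfml3 (-0.90 ± 0.22) were also lower on every fasted array. In each of these 5 genes fasted replicate 2 was the lowest array. The groups overlapped in Csf1r (-0.001), Tmem119 (-0.016), C1qa (0.076), C1qb (0.053) and C1qc (0.033), which were named after their values were seen. The C1q genes were the 3 positive differences of the list. Fasted replicate 2 had the lowest score of both lists, -0.392 for myelin and -0.395 for microglia, and the highest for glucocorticoid-induced genes; the part of that array's tissue makeup in these results was not tested.

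In the list of endothelium and pericytes, Mfsd2a rose, and the 23 measured genes were split, 4 apart upwards and 6 downwards, beside 7.35% and 5.64% of all genes. With 14 arrays 2 were called higher and 3 lower, beside 0.468% and 0.228% of all genes. Ctla2a, a cathepsin inhibitor, read 7.55, 8.25 and 7.08 against 6.03, 6.53, 6.25 and 6.33, and passed with 14 arrays and not with 7 (limma, adjusted p = 0.0492 and 0.142). Caveolin 1 (Cav1) read 7.28, 7.38 and 7.80 against 7.90, 8.45, 8.39 and 8.14, the arterial gene Gkn3 4.30, 4.18 and 4.36 against 4.94, 4.94, 5.42 and 4.61, and Vtn (vitronectin, of pericytes) 8.70, 8.55 and 8.75 against 9.12, 9.02, 9.14 and 9.08. These 3 lower genes also passed in limma with 14 arrays and not with 7. All fasted values of Gkn3 lay less than 1 log2 unit above the background median of 3.64. The junction protein Cdh5 (-0.34 ± 0.07) and the pericyte channel Kcnj8 (-0.41 ± 0.10) were apart downwards too, and the efflux pump Abcb1a upwards (0.31 ± 0.10). Apelin (Apln), a vascular peptide, read 6.72, 6.85 and 7.03 against 7.46 in fed replicate 1 and 7.42 to 7.47 in the others, a difference of -0.58 ± 0.08.

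**Figure D3:**
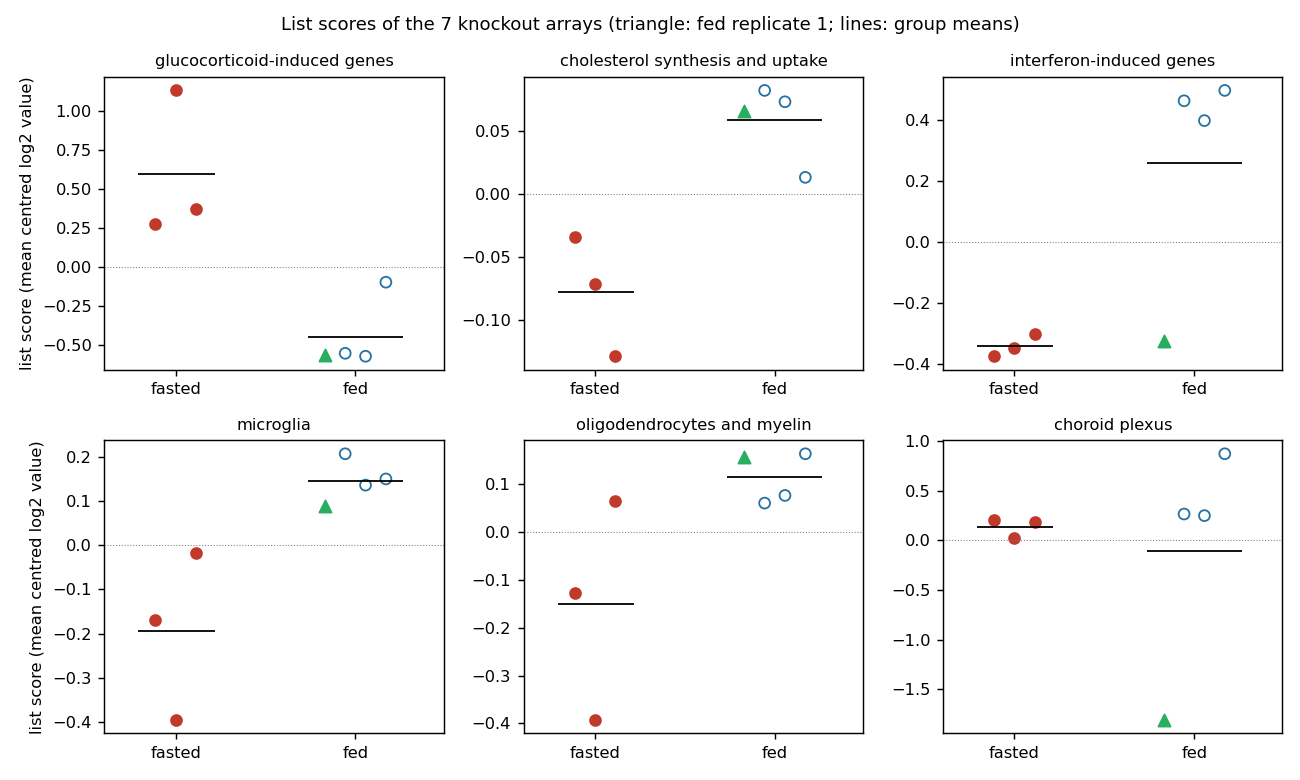
Score of each knockout array (y axis, mean log2 value of a list's measured genes after centring each gene on its mean over the 7 arrays) for 6 gene lists, with fasted arrays as filled circles, fed replicates 2 to 4 as open circles, fed replicate 1 as a triangle and lines at the group means. Each panel has its own y scale; fed replicate 1 lies with the other fed arrays for glucocorticoid-induced genes (-0.563) and with the fasted arrays for interferon-induced genes (-0.327).

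Stress and clock genes gave no call on 7 arrays. In the ATF4 list 0 of 20 measured genes passed in limma (10 at an unadjusted p below 0.05) and 2 with 14, the amino acid transporter Slc7a5 (8.86, 9.07 and 8.80 against 8.31, 8.26, 8.12 and 8.53) and the serine synthesis enzyme Psat1 (0.41 ± 0.09). Of the 20, 8 were apart upwards and 1 downwards, beside 7.35% and 5.64% of all genes. The differences were positive in 14 and negative in 6, with a median of 0.06. Phgdh (-0.087) and Psph (-0.013), also of serine synthesis, overlapped. So did Asns (0.01), Trib3 (0.012) and Chac1 (-0.036), named like Phgdh and Psph after their values were seen. Ddit3, the stress factor CHOP, read 8.77, 8.72 and 8.60 against 8.38, 8.50, 8.47 and 8.36. Slc7a11, the cystine importer, read 4.93, 4.66 and 4.99 against 5.14, 5.71, 5.69 and 5.60, in the other direction, and passed without fed replicate 1 (limma, adjusted p = 0.0391, and 0.174 on 7 arrays). Among 15 heat shock and cold-inducible genes, of which 6 had an unadjusted p below 0.05, the chaperone Chordc1 (-0.55 ± 0.12), Hsph1 (-0.24 ± 0.07) and Cryab (-0.29 ± 0.09) were apart downwards and the cold-inducible Cirbp (0.63 ± 0.16) upwards. These were all of the list that were apart, 3 and 1, beside 5.64% and 7.35% of all genes. The other cold-inducible gene, Rbm3, named after its values were seen, was near background and overlapped (-0.32 ± 0.19). Of 18 clock genes, 6 of them at an unadjusted p below 0.05, Cry1 read 8.59, 8.66 and 8.53 against 8.24, 8.34, 8.09 and 8.08, Cry2 differed by 0.23 ± 0.07 (0.10 against fed replicate 1 alone) and the output gene Dbp by -0.26 ± 0.07, and Per1, also a glucocorticoid target, overlapped.

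Interferon-induced genes separated fed replicate 1 from the other fed arrays. All 26 measured genes had a negative difference, with a median of -0.46, and 0 passed in limma (17 at an unadjusted p below 0.05). Ifit3, an antiviral protein, read 6.77, 6.70 and 6.59 fasted, 6.76 in fed replicate 1 and 8.38, 8.25 and 8.35 in fed replicates 2 to 4. Tgtp1, an interferon-induced GTPase, read 4.76, 4.45 and 5.45, then 5.26, then 7.01, 6.80 and 7.47, and Ifi27l2a read 4.73 to 5.34 fasted, 5.23 in fed replicate 1 and 6.41 to 6.54 in the others. For all 3 genes fed replicate 1 lay within the fasted range. Fed replicate 1 was below the other fed arrays in 26 of 26 of these genes, where it was in 27.6% of all genes, and within the range of the fasted arrays in 14. Against fed replicate 1 alone the list's median was -0.03, and against fed replicates 2 to 4 it was -0.64. Without fed replicate 1, 23 of the 26 had every fasted array below every fed array, where 9.31% of all genes did, and 5 with it, Irf9 (5.40, 5.31 and 5.61 against 5.70, 6.24, 6.13 and 6.25), Stat2 (-0.42 ± 0.11) and Xaf1 (-0.46 ± 0.12) among them. Against fed replicate 1 alone Stat2 differed by -0.22 and Xaf1 by -0.18. Without fed replicate 1 limma called 11 of the 26 genes, all lower, of 22 lower calls over all genes (0.129%), beside 10 higher calls (0.0585%). Among these 11 were Ifit3 (limma, adjusted p = 0.000415), Ifi27l2a and Gbp2 (0.0226) and Tgtp1 and Irf9 (0.0391). The arrays of the high title number series were the 3 with high interferon-induced transcripts, and feeding state and title number cannot be told apart for them.

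Choroid plexus genes were low on fed replicate 1 as well. Of the 9 genes 0 passed in limma, and 0 had an unadjusted p below 0.05, and the list's median was 0.30, with 1.71 against fed replicate 1 alone and -0.38 against the other fed arrays. Klotho (Kl) read 7.27, 7.15 and 7.30 fasted, 4.80 in fed replicate 1 and 7.40, 7.38 and 8.09 in the other fed arrays, and the folate receptor Folr1 read 7.31, 7.59 and 7.42, then 4.67, then 7.70, 7.57 and 8.54. The transcription factor Otx2 (6.12), the chloride channel Clic6 (7.87) and the bicarbonate transporter Slc4a5 (4.37) were also lowest on fed replicate 1. Without fed replicate 1 the differences of Ttr, Kl and Folr1 turned to -0.11, -0.38 and -0.50. Fed replicate 4 had the highest choroid plexus score (0.873) and the highest score of cortex and hippocampus genes (0.533); their part in its glucocorticoid score was not tested.

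**Figure D4:**
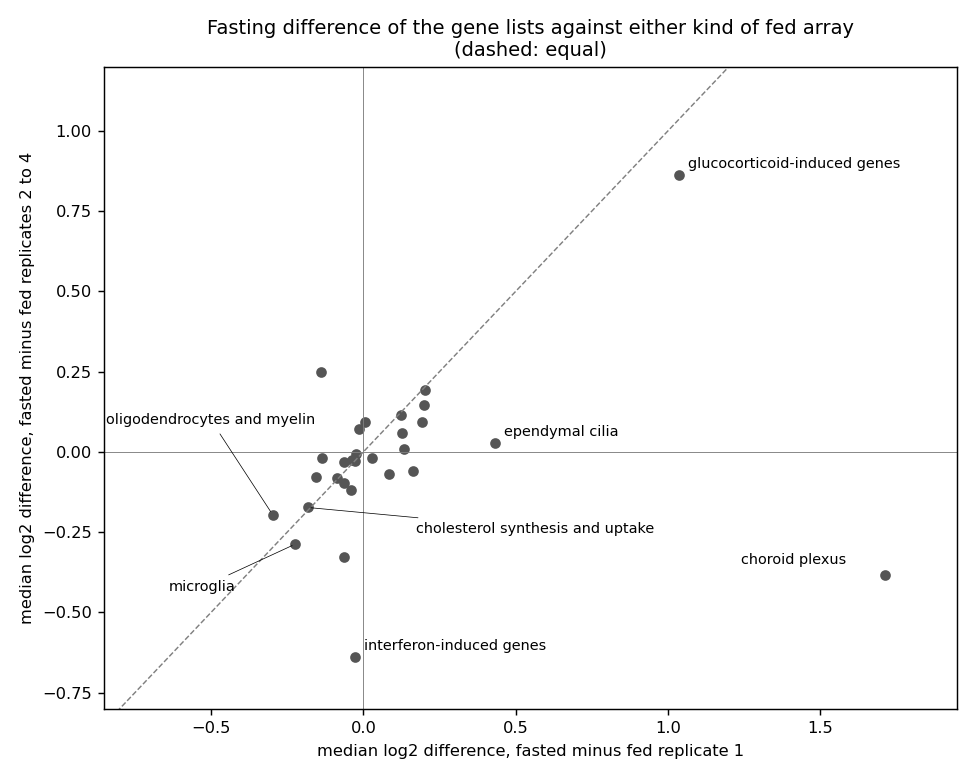
Median log2 fasting difference of each gene list against fed replicate 1 alone (x axis) and against fed replicates 2 to 4 (y axis), 1 point per list, with a dashed line where both are equal. Glucocorticoid-induced genes lie near the line (1.04 and 0.86), while choroid plexus (1.71 and -0.38) and interferon-induced genes (-0.03 and -0.64) lie away from it.

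Other genes called only in the fit over 14 arrays, with fasted and fed knockout arrays apart, belonged to no list. Higher in fasted mice were Ptgis, prostacyclin synthase (0.86 ± 0.12), Slc25a13, the aspartate-glutamate carrier (0.84 ± 0.20), Frmpd1 (0.84 ± 0.14), Nde1 (0.82 ± 0.16), Prodh, proline dehydrogenase (0.78 ± 0.14), and the peroxisomal membrane protein Pxmp2 (0.77 ± 0.13). Lower were Tst, the mitochondrial sulfurtransferase rhodanese (-0.76 ± 0.09), Pla2g4a, the arachidonate-releasing phospholipase (-0.67 ± 0.13), Dpy19l1 (-0.66 ± 0.13), Tubd1 (-0.64 ± 0.08), Noc3l (-0.60 ± 0.14) and Mob3b (-0.56 ± 0.12). Tst came closest to the threshold on 7 arrays of the lower genes here, with 7.51, 7.43 and 7.75 fasted and 8.23, 8.40, 8.43 and 8.22 fed (limma, adjusted p = 0.0552). Without fasted replicate 3 Tst, Apln, Ctla2a and Ninj2 passed (limma, adjusted p = 0.0478 for each), and Tst also without fed replicate 1 (limma, adjusted p = 0.0468). Errors here are those of the fit on 7 arrays.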

How the data were processed

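Affymetrix HT MG-430 PM arrays were used. The authors deposited log2 values, for which the submitters' processing notes name RMA and affy without versions; no genome build is given in the sources used here. RMA removes background, equalises the distributions of the arrays and combines a probe set's probes, which compresses differences of dim probe sets. No further scaling was applied. Of 45141 probe sets, 28898 name 1 gene, 551 several and 15692 none in the platform annotation; 99.3% of the IDs were found in RefSeq's table (GRCm38.p6). Each of 17097 genes was represented by the probe set naming only that gene with the highest mean over the 7 arrays, and 7180 genes had more than 1. Arrays correlated at r = 0.9913 to 0.9968 across probe sets and shared at most 2.81% identical values, so each counted as 1 sample. Precision is limited by how few arrays there are.

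Fasted minus fed differences were fitted with limma 3.58.1 (R 4.3.3), lmFit and eBayes on the 7 knockout arrays, with 5 residual and 3.33 prior degrees of freedom. Tests were two-sided, with Benjamini-Hochberg adjustment over all genes and a threshold of 0.05; errors are standard errors. A gene is apart where fasted and fed arrays do not overlap. Gene lists were described by counts and medians, without a test. The comparison, the lists and the rule for named genes were chosen with earlier results of these data known. The rule took Mfn1, Mfn2, Pomc, Cartpt and Npy, up to 15 genes past the threshold per direction, up to 15 more per direction from the fit over all 14 arrays, and up to 8 members of each list by unadjusted p, without clone symbols. In simulated data on 17097 genes the fit recovered 75% of genes changed by 0.5 and 93% of those changed by 1 on the log2 scale. The simulated noise was independent between genes and arrays, without the shifts shared by many genes that single arrays showed here. These shares therefore do not give the recovery on the real arrays. Alternatives were the fit over 14 arrays, leaving out the 40% of genes lowest in mean, averaged probe sets, probe sets chosen over 14 arrays, a trended and robust prior, the title number as a covariate, quantile normalisation and leaving out each array.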

Additional observations from a re-analysis of the deposited data

Results flagged for a closer look

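In 16 of 165 sets of fed values examined (136 of the genes named in the text and 29 list scores), 1 of the 4 fed arrays lay far from the nearest of the others, by a share of their range above Dixon's critical value. Among independent sets of normally distributed values about 1 in 20 would be apart. The sets here are not independent, and many genes were chosen by their differences on these arrays, so no excess over that share can be read. Fed replicate 1 was the array apart in 10, fed replicate 4 in 4 and fed replicate 2 in 2.

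Fed replicate 1 stood apart for Ttr at 9.99 (nearest fed array 13.04). It was low for the interferon-induced Ifit3 at 6.76 (8.25), Ifi27l2a at 5.23 (6.41) and Gbp2 at 5.14 (5.82), and for the score of interferon-induced genes at -0.327 (0.397). It was also low for Fabp7 at 10.43 (10.59) and Dpy19l1 at 8.18 (8.39). It was high for Cbs at 7.47 (7.35), the microglial receptor Gpr34 at 6.42 (6.13) and Cyp51 at 9.15 (9.12); for Cyp51 the other 3 fed arrays had the same value to 2 decimals, so this distance is a rounding step.

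Fed replicate 4 was high for Plin4 at 5.55 (nearest 4.80), Sgk1 at 10.79 (9.41), the score of glucocorticoid-induced genes at -0.096 (-0.551) and the score of FOXO targets and mTOR brakes at 0.022 (-0.124). Fed replicate 2 was high for Tubd1 at 5.48 (5.29), and its score of hypothalamic nuclei, -0.070, was the lowest of the fed arrays (0.053).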

How the results depend on the processing

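The counts of called genes depended on the arrays and the prior. The fit over 14 arrays called 80 higher and 39 lower, and a trended and robust prior 88 and 47, of which all 10 genes called on 7 arrays were part in either case. Averaging probe sets left 4 lower and the filter on low genes 2 lower, with 10 higher in both. Among the genes which that filter left out, at a mean up to 5.2, were Gkn3, Ninj2, Tubd1, Slc2a4, Acacb, Cdh5 and Stat2. The title number as a covariate left 3 higher and 0 lower. Leaving out 1 array gave 0 to 18 higher and 0 to 22 lower genes, and 1555 to 2259 genes apart upwards and 1227 to 2201 downwards, since fewer arrays must be apart. No paired analysis was possible because all title numbers differ. Of 136 genes of the text followed in this way, 127 kept their sign under every alternative. Mfn1 turned to -0.064 with averaged probe sets and -0.003 with quantile normalisation, and ranged from -0.020 to 0.023 with an array left out. Insr turned to -0.037 with averaged probe sets, and Pomc to 0.27, Cartpt to 0.053 and Mog to -0.153 with the covariate. With an array left out, Pomc ranged from -0.257 to 0.055, Cartpt from -0.047 to 0.068 and Mog from -0.073 to 0.118, and choroid plexus genes turned without fed replicate 1 and were highest without fed replicate 4: Ttr from -0.113 to 0.937, Kl from -0.383 to 0.713, Folr1 from -0.497 to 0.793 and Slc4a5 from -0.073 to 0.50. The cause of these turns was not tested. Of 348 list medians under the alternatives, 21 moved by more than the spread between arrays, in 15 of 29 lists.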

Other observations

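Markers of neighbouring regions varied among the fed arrays. Of 8 cortex and hippocampus genes all had lower means in fasted mice, with a median difference of -0.25, and -0.10 without fed replicate 4. Neurod6, a transcription factor of cortical projection neurons, read 3.90, 3.94 and 4.04 fasted and 4.08, 4.35, 4.18 and 4.82 fed, and Emx1 4.11, 4.18 and 4.19 against 4.30, 4.23, 4.37 and 4.88, both near background. The thalamic signalling regulator Rgs16 read 9.18, 8.62 and 9.26 against 9.35, 9.54, 9.63 and 9.48. Neither list had a call, with 1 of 8 and 3 of 8 genes at an unadjusted p below 0.05 in limma, beside 2483 of all 17097 genes.

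Igf2 and Igfbp2, a growth factor of choroid plexus and meninges and its binding protein, were lowest on fed replicate 1 (6.92 and 7.78, against 8.42 to 9.28 and 8.61 to 9.44 on the other fed arrays). They were picked after their values were seen. The small heat shock protein Hspb1 read 8.01, 7.66 and 8.23 fasted, 8.03 in fed replicate 1 and 8.90, 8.89 and 8.35 in the other fed arrays, so fed replicate 1 lay with the fasted arrays there too. The tanycyte receptor Gpr50 read 5.99, 5.55 and 6.36 against 6.39, 6.44, 6.47 and 6.63.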
